A study of Mus musculus with 2 samples.

Results

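The extracellular matrix genes described here are 40 genes of the mouse matrix taken from a list of names: 7 fibrillar collagens, 7 other collagens, 11 genes of the basement membrane, 9 glycoproteins, and 6 genes of proteoglycans and hyaluronan. All 40 were among the 16388 genes present in both count matrices of the series. The cells were wild-type mouse cells of the second heart field, described by the submitters as Osr1+, and were profiled one by one on a 10x Chromium. Embryonic day (E) 9.5 was 1 sample with 3 positions, each its own part of the field (anterior, middle, posterior; 54, 61 and 418 cells), and E10.5 was 1 sample with 4 (outflow tract, anterior, middle, posterior; 31, 45, 331 and 560 cells). No transgene, mutation or treatment was named for either stage, and the number of embryos and the way Osr1+ cells were picked are not given in the sources used here. Each position at each stage is called a library below, and the barcode suffix gives the position.

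Matrix proteins are secreted and assembled outside the cell. Fibrillar collagens form the tensile fibres of mesenchyme. Collagen IV, laminins, nidogens and perlecan make the basement membrane, the sheet that epithelium, endothelium and muscle rest on. Fibronectin is the early scaffold that later fibres are laid on. Versican, hyaluronan and the link protein that joins them swell the cardiac jelly between myocardium and endocardium and carry the growth of the outflow tract and the cushions. In the second heart field, the mesodermal progenitors lie as an epithelial sheet behind the heart tube, next to pharyngeal endoderm, and add cells to both poles of the heart.

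Depth and cell composition differed between the libraries, and both touch the values below. The E9.5 libraries held 1296638 to 13650408 counts and the E10.5 libraries 196599 to 3449001, with median UMIs per cell of 30208 and 5371, so 1 count was worth 3.94 CPM (counts per 1000000 counts) in the E10.5 anterior library and far less in the deepest, the E9.5 posterior one. Cells with the profile of epithelium (9 markers, among them Epcam, Cdh1, Foxa2 and Shh) were 72.2%, 34.4% and 12.9% of the anterior, middle and posterior cells of E9.5 and 16.1%, 0%, 4.23% and 7.32% of the outflow tract, anterior, middle and posterior cells of E10.5. The summed level of these markers was 1439, 1040, 724, 371, 7.88, 332 and 437 CPM in the same order, with 8 of the 9 at 0 in the E10.5 anterior library. Isl1, the LIM homeobox gene that marks second heart field progenitors, had counts in all 7 libraries. In the same order it was at 177, 79.3, 86.7, 56.0, 11.8, 75.4 and 124 CPM, with 3 counts in the E10.5 anterior library. Of the other field genes read in that library, Tbx5, Hand2 and Fgf10 had 0 counts. Foxf1 had 1, Mef2c 3, Tbx1 15 and Osr1 47 counts there. Every cell had an Osr1 count. Xist, the X-linked transcript of female cells, had a UMI in 0.188% of E9.5 and 93.4% of E10.5 cells. With 1 sample per stage, stage cannot be told apart from depth, from the sex of the embryos or from the dissection, and no test was made between stages. In sums over a library, fewer cells of a type and less RNA per cell cannot be told apart. No barcode was shared between libraries of the E9.5 sample, and 1 was shared at E10.5.

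Of the 8 members that differed by at least 2-fold at all 3 positions between the stages, 4 have a RefSeq window of 250 bases before the gene start that overlaps no annotated exon: Col3a1, Col11a1, Vcan and Bgn. Their windows are shown as the reference sequence before the starts of genes that were all higher at E10.5 (RefSeq, GRCm38.p6, 5′ to 3′ on the gene's strand, ending at the base before the start; the first RefSeq start listed). They lie at chr1:45311288-45311537 (plus strand), chr3:114030290-114030539 (plus), chr13:89742513-89742762 (minus) and chrX:73483351-73483600 (plus). Capitals mark matches, on either strand, to TATAAA (the TATA box), CCAAT (the CCAAT box) or GGGCGG (the GC box).
Col3a1: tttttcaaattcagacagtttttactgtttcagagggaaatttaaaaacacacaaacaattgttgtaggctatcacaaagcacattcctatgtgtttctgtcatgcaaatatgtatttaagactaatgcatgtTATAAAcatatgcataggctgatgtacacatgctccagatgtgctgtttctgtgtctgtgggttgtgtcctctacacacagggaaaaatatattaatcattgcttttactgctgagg
Col11a1: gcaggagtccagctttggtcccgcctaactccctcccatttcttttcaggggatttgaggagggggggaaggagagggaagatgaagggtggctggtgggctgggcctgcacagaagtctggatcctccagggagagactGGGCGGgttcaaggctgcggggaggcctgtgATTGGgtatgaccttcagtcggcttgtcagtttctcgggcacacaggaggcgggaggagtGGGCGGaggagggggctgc
Vcan: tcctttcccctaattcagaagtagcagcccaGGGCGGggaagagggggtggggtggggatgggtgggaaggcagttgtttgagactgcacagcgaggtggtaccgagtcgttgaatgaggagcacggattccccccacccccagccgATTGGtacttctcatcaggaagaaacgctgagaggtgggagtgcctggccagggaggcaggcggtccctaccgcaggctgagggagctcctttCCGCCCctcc
Bgn: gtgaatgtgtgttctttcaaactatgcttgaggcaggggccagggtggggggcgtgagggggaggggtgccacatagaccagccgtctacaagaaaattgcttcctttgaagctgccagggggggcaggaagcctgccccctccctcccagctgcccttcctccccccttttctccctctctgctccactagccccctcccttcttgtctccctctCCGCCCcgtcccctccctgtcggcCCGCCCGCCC
The Col3a1 window, with 35.2% G and C, holds TATAAA with its first letter 117 bases before the start and neither of the other motifs. The Col11a1, Vcan and Bgn windows hold 62.4%, 62.4% and 64.4% G and C and no TATAAA. Col11a1 has GGGCGG at 110 and 19 bases before the start and CCAAT on the other strand at 79. Vcan has GGGCGG at 219, again on the other strand at 10, and CCAAT on the other strand at 103. Bgn has GGGCGG on the other strand at 34, 10 and 6, the last 2 overlapping each other. Windows of the same 250 bases held TATAAA in 13.0%, CCAAT in 34.5% and GGGCGG in 32.9% of 27025 RefSeq windows, and in 3, 8 and 15 of the 24 members that had a window. A match is a run of letters, and no binding was measured.

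Summed over the 40 genes, matrix transcripts made up 0.106% to 0.174% of all counts in a library. The role groups did not keep their proportions. The fibrillar collagens together were at 120.3, 139 and 217 CPM at E9.5 and 397, 473, 395 and 472 CPM at E10.5 (order here and below: anterior, middle and posterior at E9.5, then outflow tract, anterior, middle and posterior at E10.5), and every E10.5 library lay above every E9.5 library. The proteoglycan and hyaluronan genes did the same, at 99.5, 136 and 131 CPM at E9.5 and 356, 244, 283 and 269 CPM at E10.5. The basement membrane genes overlapped between stages, at 376, 314 and 227 CPM at E9.5 and 310.3, 173, 237 and 280.4 CPM at E10.5, and so did the glycoproteins, at 886, 371 and 466 CPM at E9.5 and 463, 441, 486 and 624 CPM at E10.5, where the E9.5 anterior library stood highest. The other collagens summed to 65.6, 96.8 and 84.5 CPM at E9.5 and 219, 154, 114 and 81.2 CPM at E10.5. Markers of other cell types also differed between the stages. The 5 cushion mesenchyme markers summed to 100.3, 58.1 and 116 CPM at E9.5 and 402, 473, 217 and 130 CPM at E10.5, and the 7 erythroid markers, mostly haemoglobins, to 151, 34.3 and 73.8 CPM and 1012, 1063, 5500 and 2290 CPM. Every E10.5 library was above every E9.5 library for both lists, with Tbx20 and Snai2 at 0 in the E10.5 outflow tract library and Tbx20 at 0 in the anterior one. Alas2 was at 0 in the E10.5 outflow tract and anterior libraries. The part of these cells or their RNA in the stage differences was not tested. The heat map of all 40 levels shows these blocks gene by gene.

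**Figure D1:**
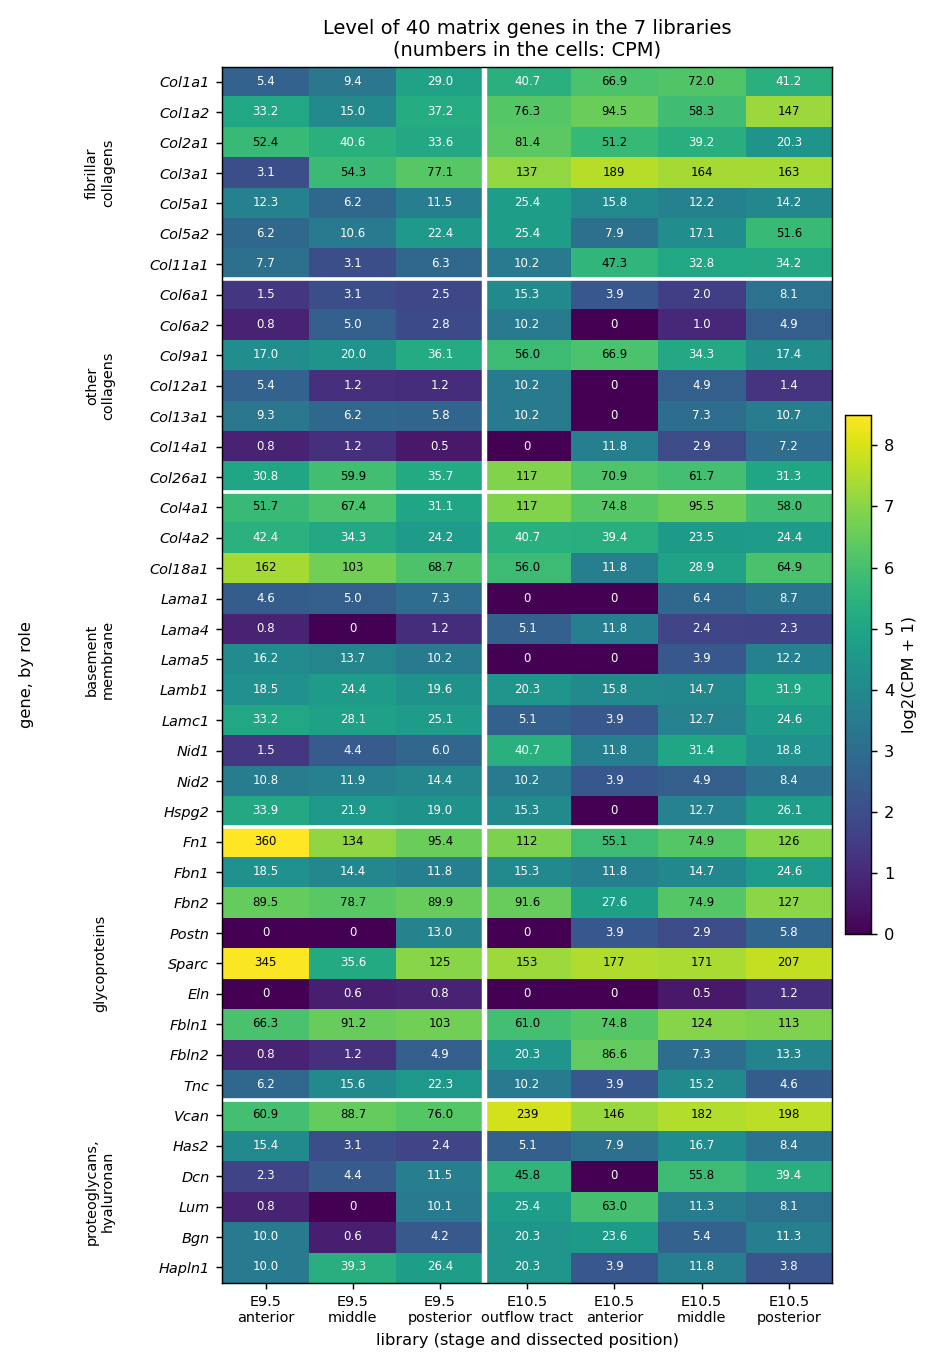
Level of each of the 40 matrix genes (rows, by role) in the 7 libraries (columns, by stage and position); colour is log2(CPM + 1) and the number in each cell is the CPM, from 1 library each with no replicate. Col3a1, Vcan and Col11a1 are brighter across the E10.5 columns, while Fn1, Sparc and Col18a1 peak in the E9.5 anterior column at 360.2, 345 and 162 CPM.

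Among the fibrillar collagens, Col3a1, the chain of type III collagen, the fibre of soft and embryonic mesenchyme (chromosome 1, 45311538 to 45349706, plus strand, GRCm38), stood at 3.08 (anterior), 54.3 (middle) and 77.1 CPM (posterior) at E9.5 and at 137 (outflow tract), 189 (anterior), 164 (middle) and 163 CPM (posterior) at E10.5. The E9.5 anterior value rested on 4 counts, and all 4 E10.5 libraries lay above all 3 E9.5 libraries. The log2 fold of E10.5 over E9.5 was 5.94 (4.49 to 7.87) anterior, 1.59 (1.25 to 1.95) middle and 1.08 (0.93 to 1.23) posterior (95% exact conditional Poisson intervals, counting error only). Within E9.5, the posterior library was 25.0-fold above the anterior one, while at E10.5 the same comparison gave a log2 fold of -0.21 (95% interval -0.64 to 0.25).

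The 2 chains of type I collagen, the main fibre of connective tissue, did not follow each other over positions. Col1a1 was at 5.40, 9.37 and 29.0 CPM at E9.5 and 40.7, 66.9, 72.0 and 41.2 CPM at E10.5, so the posterior library was the highest at E9.5 and not at E10.5. The stage log2 folds were 3.63 (2.29 to 5.14) anterior, 2.94 (2.17 to 3.82) middle and 0.51 (0.22 to 0.79) posterior. Col1a2 was at 33.2, 14.99 and 37.2 CPM at E9.5 and 76.3, 94.5, 58.3 and 147 CPM at E10.5, lowest in the middle library at both stages, with stage log2 folds of 1.51 (0.73 to 2.26) anterior, 1.96 (1.32 to 2.66) middle and 1.98 (1.80 to 2.16) posterior. Of the 396 Col1a1 counts in the E9.5 posterior library, 98 came from 1 cell of a mesothelium-like cluster, and without that cell the library stood at 21.9 CPM.

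Type V and type XI collagens sit inside the fibres and set their width. Col5a2 was at 6.17, 10.6 and 22.4 CPM at E9.5 and 25.4, 7.88, 17.1 and 51.6 CPM at E10.5: within each stage it was highest in the posterior library of the 3 positions shared by the stages. At E9.5 posterior exceeded anterior by a log2 fold of 1.86 (95% interval 0.86 to 3.09), and the E10.5 fold was 2.71 (0.84 to 5.77), the latter against 2 counts. Col5a1, its partner chain, was at 12.3, 6.24 and 11.5 CPM at E9.5 and 25.4, 15.8, 12.2 and 14.2 CPM at E10.5, and none of its 3 stage intervals or its posterior to anterior intervals left 0. Col11a1 was at 7.71, 3.12 and 6.30 CPM at E9.5 and 10.2, 47.3, 32.8 and 34.2 CPM at E10.5, with stage log2 folds of 2.62 (1.28 to 3.98) anterior, 3.39 (2.10 to 5.06) middle and 2.44 (2.03 to 2.86) posterior. At each shared position its E10.5 level was at least 5.43-fold the E9.5 level. Col2a1, the cartilage collagen that early epithelia also make, was at 52.4, 40.6 and 33.6 CPM at E9.5 and 81.4, 51.2, 39.2 and 20.3 CPM at E10.5, and the anterior library was above the posterior one by 1.56-fold at E9.5 and 2.52-fold at E10.5.

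Of the other collagens, Col26a1 (collagen XXVI) was at 30.8, 59.9 and 35.7 CPM at E9.5 and 117, 70.9, 61.7 and 31.3 CPM at E10.5, highest in the middle library of the 3 E9.5 libraries and in the outflow tract at E10.5. Col9a1, a chain of the fibril-associated collagen IX, was at 17.0, 19.98 and 36.1 CPM at E9.5 and 56.0, 66.9, 34.3 and 17.4 CPM at E10.5. At E9.5 its posterior to anterior log2 fold was 1.09 (95% interval 0.48 to 1.78), and the E10.5 fold was -1.94 (-2.74 to -1.07), so the order of the ends was opposite in the 2 samples. Col13a1, a transmembrane collagen, was at 9.25, 6.24 and 5.79 CPM at E9.5 and 10.2, 0, 7.35 and 10.7 CPM at E10.5. Its 0 in the E10.5 anterior library allows up to 11.8 CPM (3 counts), above its other levels. Col6a1 and Col6a2, chains of the microfibrils that surround cells, were between 0.771 and 15.3 CPM where counted, with at most 38 counts in a library, and Col6a2 had none in the E10.5 anterior library. Col12a1 was at 1.17 to 10.2 CPM where counted and Col14a1 at 0.513 to 11.8 CPM, with 40 and 44 counts over the 6 libraries of the shared positions. These 2 fibril-associated collagens were under the 50 counts asked for below.

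In the basement membrane, Col18a1, whose C-terminal fragment is endostatin (chromosome 10, 77052178 to 77166548, minus strand), was at 162, 103 and 68.7 CPM at E9.5 and 56.0, 11.8, 28.9 and 64.9 CPM at E10.5. It was highest in the anterior library at E9.5 and lowest in the anterior library at E10.5, where 3 counts were seen. The stage log2 folds were -3.78 (-6.07 to -2.21) anterior, -1.83 (-2.29 to -1.40) middle and -0.08 (-0.30 to 0.13) posterior. Col4a1 and Col4a2, the paired chains of collagen IV that start from 1 shared region of chromosome 8, were at 51.7, 67.4 and 31.1 CPM at E9.5 and 117, 74.8, 95.5 and 58.0 CPM at E10.5, and 42.4, 34.3 and 24.2 CPM at E9.5 and 40.7, 39.4, 23.5 and 24.4 CPM at E10.5. Both were below the anterior and middle levels in the E9.5 posterior library. Per stage, Col4a1 posterior to middle log2 folds were -1.12 (-1.43 to -0.80) and -0.72 (-1.01 to -0.43), while Col4a2 gave -0.51 (-0.92 to -0.07) and 0.05 (-0.48 to 0.59).

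Of the laminins, the cross-shaped trimers of the sheet, Lamb1 and Lamc1 carry the chains common to most forms. Lamb1 was at 18.5, 24.4 and 19.6 CPM at E9.5 and 20.3, 15.8, 14.7 and 31.9 CPM at E10.5. Lamc1 was at 33.2, 28.1 and 25.1 CPM at E9.5 and 5.09, 3.94, 12.7 and 24.6 CPM at E10.5, with stage log2 folds of -3.07 (-8.41 to -0.52) anterior, -1.14 (-1.90 to -0.41) middle and -0.03 (-0.39 to 0.32) posterior, the anterior one on 1 E10.5 count. Lama5, the alpha chain of epithelial basement membrane, was at 16.2, 13.7 and 10.2 CPM at E9.5 and 0, 0, 3.92 and 12.2 CPM at E10.5. Hspg2, which encodes perlecan, was at 33.9, 21.9 and 19.0 CPM at E9.5 and 15.3, 0, 12.7 and 26.1 CPM at E10.5, and its 0 in the E10.5 anterior library makes the E9.5 anterior level at least 2.87-fold higher. Lama1, the early embryonic alpha chain, was between 4.63 and 8.70 CPM in the 5 libraries with counts, and Lama4, of vessels and muscle, had 34 counts in all 7 libraries. The 2 nidogens, which link laminin to collagen IV, differed between the stages in opposite directions. Nid1 was at 1.54, 4.37 and 6.01 CPM at E9.5 and 40.7, 11.8, 31.4 and 18.8 CPM at E10.5, higher in every E10.5 library than in any E9.5 library, with stage log2 folds of 2.94 (-0.19 to 6.52) anterior, 2.84 (1.72 to 4.21) middle and 1.65 (1.16 to 2.14) posterior. Nid2 was at 10.8, 11.9 and 14.4 CPM at E9.5 and 10.2, 3.94, 4.90 and 8.41 CPM at E10.5, lower in every E10.5 library than in any E9.5 library, with folds of -1.46 (-6.86 to 1.26) anterior, -1.28 (-2.54 to -0.10) middle and -0.77 (-1.39 to -0.20) posterior. The anterior intervals of both contained 0, at 3 and 1 E10.5 counts.

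Among the glycoproteins, Fn1, fibronectin (chromosome 1, 71585520 to 71653200, minus strand), was at 360.2, 134 and 95.4 CPM at E9.5 and 112, 55.1, 74.9 and 126 CPM at E10.5. The E9.5 anterior library stood apart, 3.78-fold above the E9.5 posterior library, and at E10.5 the posterior library was 2.29-fold above the anterior one. Sparc, a collagen-binding protein secreted by many matrix-forming cells, was at 345, 35.6 and 125 CPM at E9.5 and 153, 177, 171 and 207 CPM at E10.5, low in the E9.5 middle library alone. Its stage log2 folds were -0.96 (-1.44 to -0.52) anterior, 2.27 (1.86 to 2.70) middle and 0.73 (0.60 to 0.85) posterior, so the anterior pair went against the other 2. Fbn1 and Fbn2, the fibrillins of elastic microfibrils, were at 18.5, 14.4 and 11.8 CPM at E9.5 and 15.3, 11.8, 14.7 and 24.6 CPM at E10.5, and 89.5, 78.7 and 89.9 CPM at E9.5 and 91.6, 27.6, 74.9 and 127 CPM at E10.5. Fbn2 was within 78.7 to 89.9 CPM over the E9.5 positions and spread from 27.6 to 127 CPM over those of E10.5.

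Fbln1, fibulin-1, a binder of fibronectin and basement membranes, was at 66.3, 91.2 and 103 CPM at E9.5 and 61.0, 74.8, 124 and 113 CPM at E10.5 and had the narrowest range of stage folds among the 7 glycoproteins with 3 ratios, 0.17 (-0.63 to 0.90) anterior, 0.44 (0.14 to 0.75) middle and 0.14 (-0.02 to 0.31) posterior. Fbln2, fibulin-2, which the cushion mesenchyme makes, was at 0.771, 1.25 and 4.91 CPM at E9.5 and 20.3, 86.6, 7.35 and 13.3 CPM at E10.5. The E10.5 anterior library held 22 counts in 18 of 45 cells, no cell with more than 2, against 1 count in the E9.5 anterior library. The stage log2 folds were 6.81 (4.18 to 12.18) anterior, 2.56 (0.45 to 5.73) middle and 1.44 (0.87 to 2.01) posterior. Tnc, tenascin-C, an anti-adhesive protein of moving tissue, was at 6.17, 15.6 and 22.3 CPM at E9.5 and 10.2, 3.94, 15.2 and 4.64 CPM at E10.5, and its posterior stage log2 fold was -2.27 (95% interval -3.09 to -1.55). Postn, periostin, a gene of cushions and fibroblasts, had 0, 0 and 178 counts at E9.5 and 0, 1, 6 and 20 counts at E10.5. In the E9.5 posterior library 103 of its 178 counts were in the same single cell that held 98 Col1a1 counts, and the level without it was 5.51 CPM in place of 13.0. Eln, elastin, had 17 counts in all 7 libraries.

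Among the proteoglycan and hyaluronan genes, Vcan, versican, the large hyaluronan-binding proteoglycan of the cardiac jelly (chromosome 13, 89655312 to 89742509, minus strand), was at 60.9 (anterior), 88.7 (middle) and 76.0 CPM (posterior) at E9.5 and at 239 (outflow tract), 146 (anterior), 182 (middle) and 198 CPM (posterior) at E10.5. All 4 E10.5 libraries were above all 3 E9.5 libraries, with stage log2 folds of 1.26 (0.65 to 1.84) anterior, 1.04 (0.75 to 1.32) middle and 1.38 (1.24 to 1.52) posterior. Hapln1, the link protein that holds versican on hyaluronan, was at 10.0, 39.3 and 26.4 CPM at E9.5 and 20.3, 3.94, 11.8 and 3.77 CPM at E10.5 and was lower at E10.5 at each shared position, with stage log2 folds of -1.35 (-6.76 to 1.39) anterior, -1.74 (-2.49 to -1.04) middle and -2.81 (-3.73 to -2.01) posterior. Its E10.5 outflow tract level, on 4 counts, overlapped the E9.5 range. Has2, the synthase that makes hyaluronan in the embryonic heart, was at 15.4, 3.12 and 2.42 CPM at E9.5 and 5.09, 7.88, 16.7 and 8.41 CPM at E10.5, so the E9.5 anterior and E10.5 middle libraries held its high levels.

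Dcn, Lum and Bgn are small leucine-rich proteoglycans that bind collagen fibres. Dcn, decorin, was at 2.31, 4.37 and 11.5 CPM at E9.5 and 45.8, 0, 55.8 and 39.4 CPM at E10.5. Its 0 in the E10.5 anterior library allows up to 11.8 CPM, so the posterior library there was at least 3.34-fold above it. The E9.5 posterior library exceeded the anterior one by a log2 fold of 2.31 (95% interval 0.74 to 4.61). Lum, lumican, was at 0.771, 0 and 10.1 CPM at E9.5 and 25.4, 63.0, 11.3 and 8.12 CPM at E10.5. The anterior library was the lowest but one at E9.5 and the highest at E10.5, where 16 counts came from 6 of 45 cells. In the E9.5 posterior library 76 of 138 Lum counts were in the cell that also held most Postn counts, and the level without it was 4.56 CPM. Bgn, biglycan, was at 10.0, 0.624 and 4.18 CPM at E9.5 and 20.3, 23.6, 5.39 and 11.3 CPM at E10.5, with stage log2 folds of 1.24 (-0.45 to 2.73) anterior, 3.11 (0.33 to 8.54) middle and 1.44 (0.81 to 2.05) posterior, the middle pair on 1 E9.5 count.

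The stage comparison asks which matrix genes differed between E9.5 and E10.5 at all 3 shared positions. A gene was counted when it had at least 50 counts over the 6 libraries and differed by at least 2-fold in 1 direction at every position. Of the 36 members with enough counts, 7 were higher at E10.5 (19.4%; 3.19% of 11013 genes) and 1 was lower (2.78%; 1.55% of genes). The 7 were Col1a2, Col3a1, Col11a1, Nid1, Fbln2, Vcan and Bgn, with mean log2 folds over the 3 positions of 1.82, 2.87, 2.82, 2.48, 3.60, 1.23 and 1.93. The 1 lower gene was Hapln1, at -1.97. By role, 3 of 7 fibrillar collagens and 2 of 6 proteoglycan and hyaluronan genes were higher, against 1 of 10 basement membrane genes and 1 of 8 glycoproteins with enough counts, and none of 5 other collagens.

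The median of the mean log2 folds was 0.45 over the 32 members with a value or bound at every position and -0.05 over 9607 genes. It was 1.82 for the 7 fibrillar collagens, 1.23 for 5 proteoglycan and hyaluronan genes, 0.57 for 3 other collagens, 0.12 for 8 glycoproteins and -0.61 for 9 basement membrane genes. Without the epithelium-like cells, whose share was higher at E9.5 at each shared position, 4 of the 7 stayed past 2-fold (Col1a2, Col11a1, Nid1, Fbln2) together with Hapln1. The middle log2 fold of Col3a1 became 0.87, and the anterior folds of Vcan and Bgn became -0.24 and 0.01. With every cell thinned to 4500 UMIs, 3 of the 7 (Col1a2, Col3a1, Col11a1) and not Hapln1 were past 2-fold at all positions. The anterior log2 folds of Hapln1 and Nid1 were then each 0.43. Before thinning, the E10.5 anterior library held 1 Hapln1 count and 3 Nid1 counts, so these 2 values give no direction. Leaving out of each library the cell with most counts of a gene kept the 7 and lost Hapln1.

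**Figure D2:**
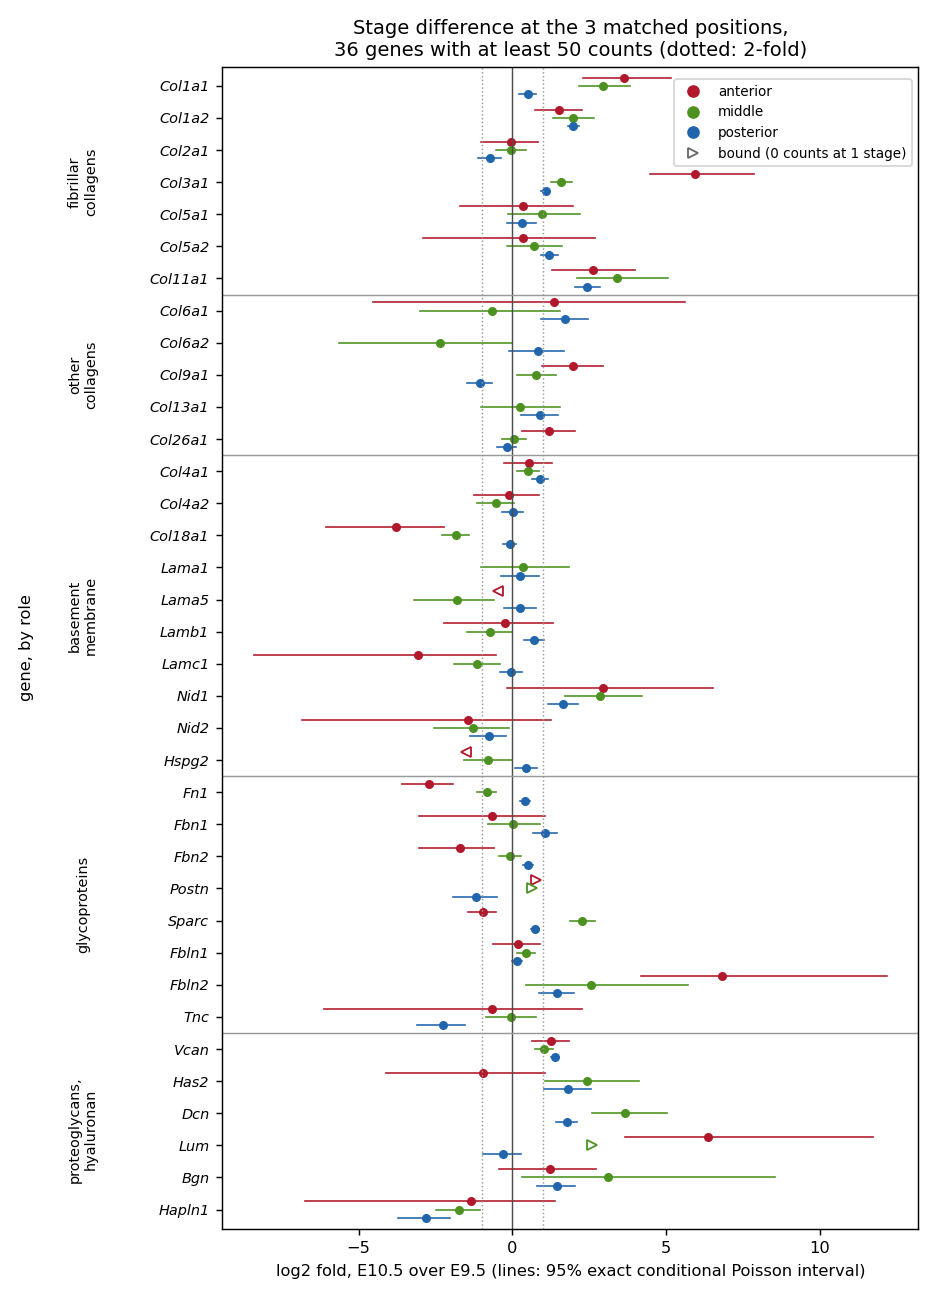
Log2 fold of E10.5 over E9.5 (x axis) for the 36 matrix genes with at least 50 counts (y axis, by role) at the anterior, middle and posterior positions; points are single library pairs, lines are 95% exact conditional Poisson intervals for counting error only, open arrowheads are bounds, and a position with no interpretable ratio is left blank. Col1a2, Col11a1 and Vcan have all 3 points right of the 2-fold line, Hapln1 has all 3 left of the opposite line, and the anterior intervals are the widest.

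Position was compared over the 6 libraries of the shared positions with the 2 stage samples as replicates (edgeR's quasi-likelihood test with stage as a term, Benjamini-Hochberg adjustment over 9825 genes). None of the 35 members in the fit passed an adjusted p of 0.05 in posterior minus anterior (0.295% of all genes passed), in posterior minus middle (0.193%) or in middle minus anterior (0%). DESeq2 and limma also called 0 members in each. At an unadjusted p under 0.05 there were 6, 7 and 8 of the 35 members, against 6.05%, 3.85% and 3.51% of all genes. None of these is a call. The fit has 2 residual degrees of freedom, and its spread takes in any difference between stages in how position acts. With 1 library left out, more genes passed in posterior minus anterior, members among them, but 1 position then rests on a single library. Members passing in those fits are given below only as a range over settings, and none of them is a call.

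The members with the smallest p in posterior minus anterior were Col5a2, with a fitted log2 fold of 2.05 ± 0.44 (SE; adjusted p = 0.189, edgeR), and Dcn, at 2.94 ± 0.91 (adjusted p = 0.496). Col2a1 followed at -0.995 ± 0.32, Has2 at -1.97 ± 0.72, Col4a2 at -0.84 ± 0.32, Col4a1 at -0.67 ± 0.26, Postn at 3.67 ± 1.64 and Bgn at -1.28 ± 0.59, with edgeR adjusted p from 0.538 to 0.846. The Has2 value rested on the E9.5 anterior library, where all 20 of its counts were in epithelium-like cells: without epithelium-like cells the fitted fold was 0.74, and without that library 0.16. The Postn value of the E9.5 posterior library came largely from the single cell described above. In posterior minus middle, Col1a2 led with 1.22 ± 0.25 (edgeR adjusted p = 0.169), then Col4a1 with -0.997 ± 0.23 (0.269) and Col5a2 with 1.27 ± 0.33 (0.437). Col26a1 was at -0.91 ± 0.30, Hapln1 at -1.03 ± 0.39, Postn at 2.48 ± 1.08, Col2a1 at -0.66 ± 0.29 and Bgn at 1.34 ± 0.64, with edgeR adjusted p from 0.870 to 0.996.

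Counted without a test, by the same 2-fold rule at both stages, 2 of 36 members with enough counts were higher in posterior than in anterior libraries (Col5a2 and Dcn; 1.12% of 10746 genes) and 1 was lower (Bgn; 0.661%). Against the middle, 3 were higher in posterior libraries (Col1a2, Col5a2 and Bgn; 2.22% of 10859 genes) and none was lower (0.405%). Bgn rested on 13, 1 and 57 counts at the E9.5 positions, and it is past the rule neither against the anterior nor against the middle when the cell with most Bgn counts is left out of each library. Without epithelium-like cells, Dcn was no longer past the rule against the anterior, where Col5a2 and Hspg2 were, and against the middle Lama5, Hspg2 and Bgn were higher, while Col26a1 and Hapln1 were lower. The posterior libraries also held cell classes that were few or not found in the anterior ones. At E9.5 these included 82 mesothelium-like and 69 cardiomyocyte-like cells, against 0 and 2, with Col5a2 at 33.0 and 19.96 CPM. At E10.5 they included 241 foregut mesenchyme-like cells (43.0% of the posterior library) and 195 cells of an unnamed cluster (34.8%). The 52 hepatoblast-like cells (9.29%), with Col5a2 at 100.3 CPM, were a smaller class. The E10.5 anterior library held 0 cells of each of these classes. Without the cells of all named clusters, neither Col5a2 nor Dcn nor Bgn was past the rule against the anterior, and Col2a1, Col4a1 and Col26a1 were lower in posterior libraries. The fitted posterior minus anterior fold of Col5a2 was then 1.57 (edgeR adjusted p = 0.447), and that of Dcn 9.08 (edgeR adjusted p = 0.0213), a value set by libraries with no Dcn count and so no measure of size. Against the middle, Col1a2, Lama5 and Hspg2 were then higher and Col2a1, Col4a1, Col13a1, Col26a1 and Hapln1 lower.

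**Figure D3:**
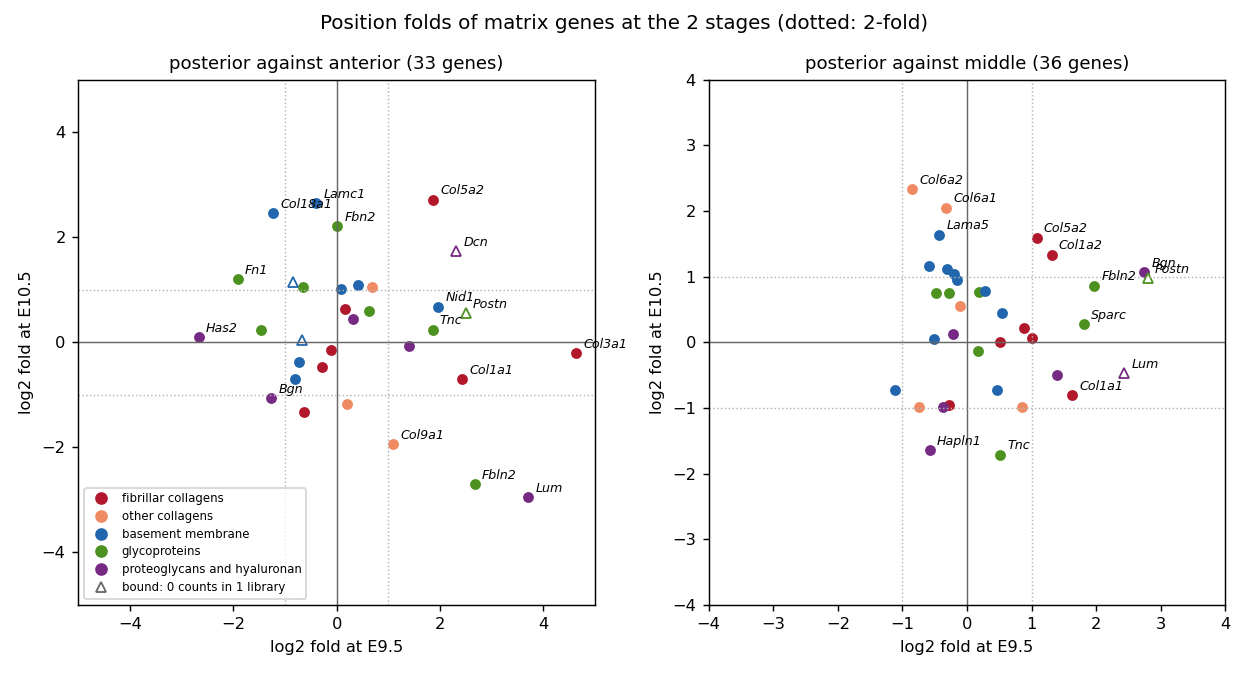
Log2 fold of the posterior over the anterior library (left) and over the middle library (right) at E9.5 (x axis) and E10.5 (y axis); each point is a matrix gene with at least 50 counts, coloured by role, triangles are bounds, dotted lines mark 2-fold, and intervals are not drawn. Col5a2 and Dcn lie in the upper right beyond 2-fold on the left panel, while Fbln2, Lum and Col9a1 lie in the lower right quadrant and Col18a1 and Fn1 in the upper left.

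Cells were also split, within each library, into epithelium-like and other cells, from clusters made without any listed matrix gene. Hspg2, perlecan, and Lama5, a laminin chain, both of the basement membrane, were higher in epithelium-like cells. Hspg2 was at 47.1, 41.2 and 42.7 CPM in the epithelium-like cells of E9.5, from anterior to posterior, and at 2.61, 5.73 and 15.9 CPM in the other cells. Lama5 was at 19.7, 28.8 and 28.4 against 7.82, 1.15 and 7.85 CPM. These 2 of 34 members with at least 50 E9.5 counts were at least 2-fold higher in all 3 E9.5 libraries (1.67% of 10366 genes). Col4a1, Col4a2, Col18a1, Lamb1 and Lamc1 were above 1-fold in all 3 and past 2-fold in some of them: Col4a2 was at 46.0, 53.5 and 80.8 against 33.9, 18.3 and 16.9 CPM. In the anterior library the intervals of Col4a1, Col4a2, Lamb1, Lamc1 and Lama5 contained 0, with 3 Lama5 counts in the other cells. The nidogens, linkers of the same sheet, lay the other way: Nid2 was at 9.86, 4.12 and 5.17 against 13.0, 18.3 and 15.5 CPM, and Nid1 at 1.10, 0 and 1.29 against 2.61, 8.02 and 6.61 CPM. Their anterior values show no clear direction: the log2 fold was -0.40 (-2.14 to 1.52) for Nid2, and Nid1 had 1 count in each class.

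Several collagens and glycoproteins were lower in epithelium-like cells. At least 2-fold lower in epithelium-like cells of all 3 E9.5 libraries were 8 of the 34 members (1.99% of genes): Col3a1, Col5a2, Col9a1, Col13a1, Col26a1, Fbn1, Tnc and Hapln1. Col3a1 was at 0, 0 and 5.17 CPM in epithelium-like cells and at 10.4, 99.6 and 86.3 CPM in the others. Col26a1 was at 14.2, 6.86 and 1.29 against 70.4, 104 and 40.1 CPM. Has2 was counted in epithelium-like cells alone in the anterior and middle E9.5 libraries, 20 and 5 counts against 0 and 0. Col2a1 was at 52.6, 52.2 and 32.3 against 52.1, 30.9 and 33.8 CPM, with log2 folds of 0.01 (-0.77 to 0.84), 0.75 (0.00 to 1.52) and -0.06 (-0.52 to 0.36). Fn1 was higher in the E9.5 anterior library in both classes, at 403 CPM in epithelium-like and 258 CPM in the other cells, against 104 and 94.3 CPM in the posterior library. Sparc was higher in epithelium-like cells of the anterior library, at 405 against 201 CPM, and lower in those of the posterior library, at 51.1 against 134 CPM. Vcan was at 14.2, 52.2 and 54.3 CPM in epithelium-like and 172, 119 and 78.8 CPM in other cells. The other cells of the E9.5 anterior library were 15 in number. Cells are not replicates, so these are descriptions.

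**Figure D4:**
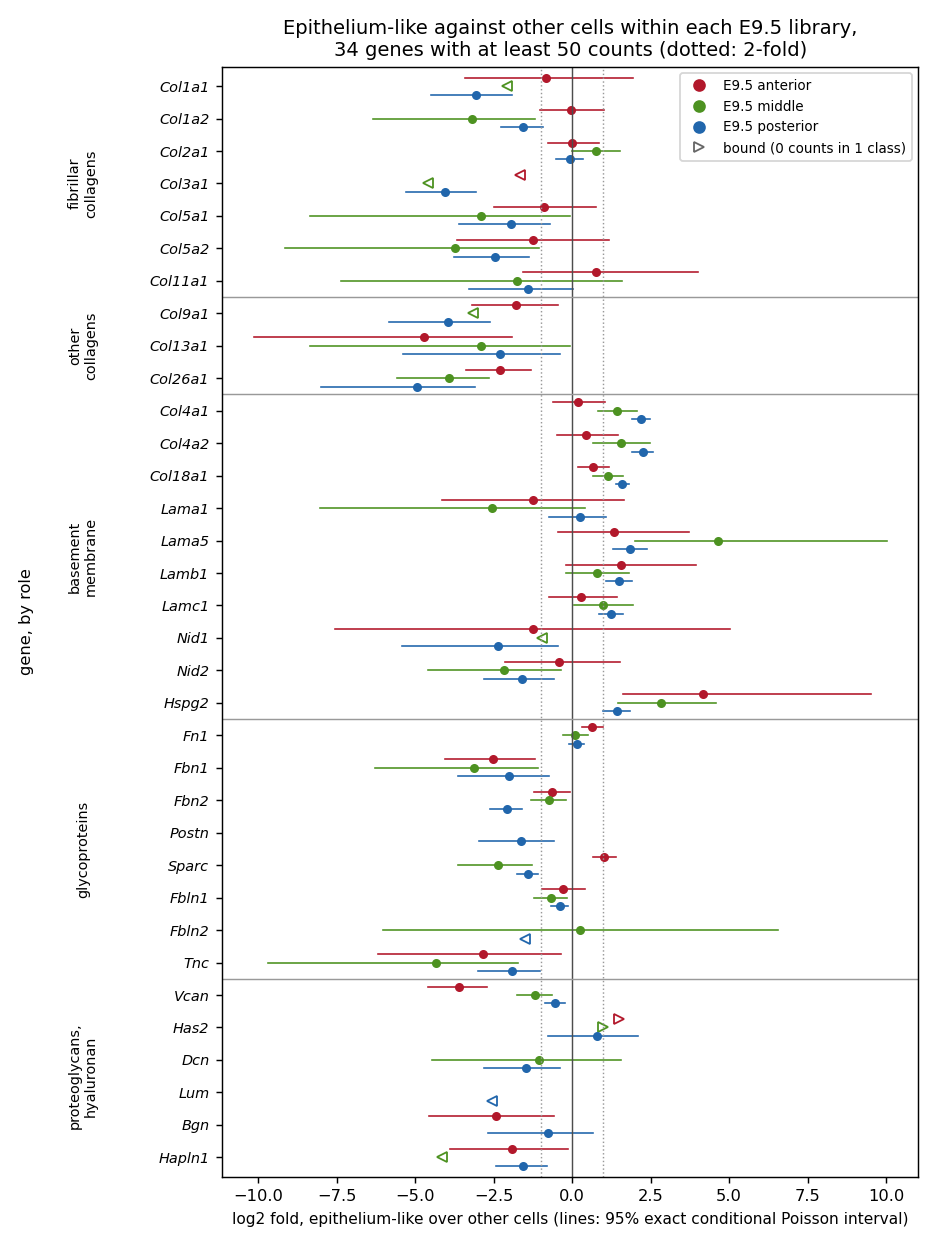
Log2 fold of epithelium-like over other cells (x axis) within each E9.5 library for the 34 matrix genes with at least 50 counts (y axis, by role); points are single libraries, lines are 95% exact conditional Poisson intervals for counting error only, and open arrowheads are bounds. Lama5 and Hspg2 lie right of the 2-fold line in all 3 libraries, and Col3a1, Col26a1 and Tnc lie left of it.

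At E10.5 the order of the classes was the same as at E9.5 for Lama5, at 30.5 against 0.552 CPM in the middle and 36.5 against 9.85 CPM in the posterior library, and for Col3a1, at 21.8 against 182 CPM and 36.5 against 175 CPM. It was not the same for Col4a1, at 43.6 against 102 CPM in the middle library (log2 fold -1.23, -2.31 to -0.32) and 143 against 49.9 CPM in the posterior one. Col4a2 was at 21.8 against 23.7 CPM in the middle library, and Hspg2 at 36.5 against 25.1 CPM in the posterior library, with a log2 fold of 0.54 (-0.52 to 1.46). Dcn did not follow the fibrillar collagens there. It was at 305 CPM in the 14 epithelium-like cells of the middle library and 24.3 CPM in the other cells, at 201 against 12.4 CPM in the outflow tract (5 epithelium-like cells), and at 3.32 against 42.9 CPM in the posterior library. In the middle library its 70 counts were in 7 of the 14 cells, 32 of them in 1 cell. In the other cells of that library, 29 of 317 had a Dcn UMI (9.15%), at median depths of 8331 UMIs in epithelium-like and 5229 in other cells. In the posterior library the shares of cells with a Dcn UMI were 2.44% and 17.3%, at 6250 and 5342 UMIs. The summed erythroid markers were highest in the middle library, with no erythroid cluster, and the part of free RNA in the Dcn counts was not tested. Dcn was also among the 10 leading genes of the E10.5 epithelium-like cluster, although no listed matrix gene was used to make it.

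By cluster, the mesothelium-like cells of E9.5 numbered 94. Among the 4 clusters of that stage with at least 10 cells, they held the highest Col1a1, Col1a2 and Col3a1 levels. Of the mesothelium markers, Wt1, Upk3b, Tbx18 and Lrrn4 passed and Upk1b and Tcf21 did not. Col1a1, Postn and Lum were among the 10 leading genes of this cluster. Col1a1 was at 107 CPM there and at 3.14, 6.88 and 4.89 CPM in the epithelium-like, unnamed and cardiomyocyte-like clusters. Lum was at 40.8 CPM against at most 0.944, Postn at 49.3 against at most 2.20, and Hapln1 at 57.2 against at most 17.5 CPM. The single cell described above was in this cluster, and without it the cluster was at 77.8 CPM for Col1a1, 17.2 CPM for Postn and 17.2 CPM for Lum. The names depend on the clustering: with each stage clustered alone, 63 of the 94 cells were mesothelium-like and 26, in a cluster led by Hand1, Postn, Mab21l2 and Lum, were cushion mesenchyme-like, and at resolutions 0.3 and 1.0 all 94 were unnamed. The cardiomyocyte-like cells (71 at E9.5) were highest for Col2a1, at 82.3 CPM, Col9a1, at 68.8 CPM, Nid2, at 32.6 CPM, and Fbln1, at 141 CPM. Of the 72 cardiomyocyte-like cells of both stages, 34 kept that name at resolutions 0.3 and 1.0 and 32 with stages clustered alone.

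At E10.5 an unnamed cluster of 160 cells, led by Crym, Tagln, Twist1 and Prrx1, held 43 of 45 anterior, 21 of 31 outflow tract, 73 of 331 middle and 23 of 560 posterior cells. It was highest of the E10.5 clusters for Col1a1, at 134 CPM, Col3a1, at 255 CPM, Col9a1, at 64.5 CPM, Col26a1, at 97.3 CPM, Fbln2, at 42.3 CPM, and Lum, at 48.6 CPM, and it had no Lama5 count. Vcan was highest in the foregut mesenchyme-like cluster, at 266 CPM, which was made up of 241 posterior cells. Of these, 78 kept that name at resolution 1.0 and 162 with stages clustered alone. Nkx6-1, Tbx5 and Hhip passed as markers of this cluster and Foxf1, Barx1, Wnt2 and Tbx4 did not, and haemoglobins passed too. The 52 hepatoblast-like cells, also all posterior, were at 194 CPM for Col1a2, 100.3 CPM for Col5a2 and 45.6 CPM for Col13a1. Of these cells, 51 kept that name at resolution 1.0 and 45 with stages clustered alone, and at 0.3 all 52 were foregut mesenchyme-like. Alb, Afp, Ttr, Apoa1 and Fgb passed as their markers and Hnf4a did not, and haemoglobins passed too. The part of free RNA in these markers was not tested, so the collagen levels are those of the cluster and not of a settled cell type. The 10 endothelium-like cells were at 283 CPM for Col4a1, 111 CPM for Col4a2, 91.0 CPM for Nid1 and 536 CPM for Sparc, the highest of the E10.5 clusters for each. Clusters held by 1 library cannot be told apart from that library.

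**Figure D5:**
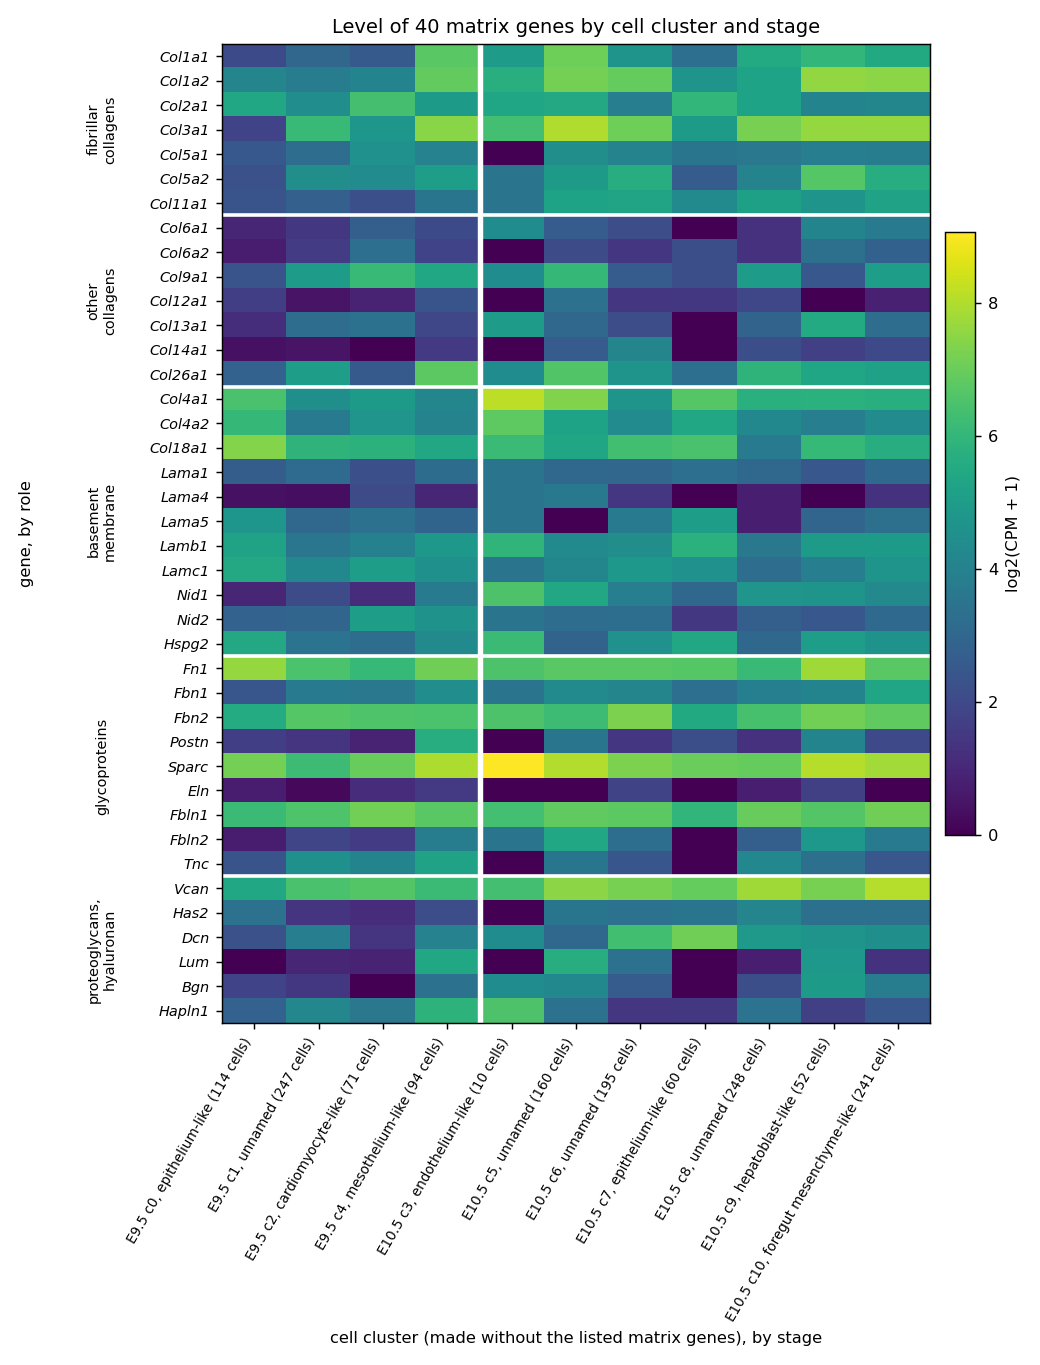
Level of the 40 matrix genes (rows, by role) in cell clusters of at least 10 cells (columns, by stage; -like marks a name taken from marker genes); colour is log2(CPM + 1) of summed counts, with no replicate. Col4a1, Col4a2, Col18a1, Lama5 and Hspg2 are brighter in the epithelium-like than in the unnamed E9.5 column, and Col1a1, Col3a1 and Lum are brighter in the mesothelium-like column.

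The outflow tract library of E10.5 was compared with the anterior one of the same stage. Only Col3a1, Sparc and Vcan had 50 counts over both, and none of the 3 was past 2-fold (1.86% of 1452 genes were higher and 1.58% lower). Their log2 folds, outflow tract over anterior, were -0.46 (95% interval -1.20 to 0.25), -0.22 (-0.93 to 0.48) and 0.71 (0.06 to 1.38). Among members under 50 counts, Fbln2 was at 20.3 against 86.6 CPM, a log2 fold of -2.09 (95% interval -4.09 to -0.53), Col11a1 at -2.22 (-5.42 to -0.05) and Col18a1 at 2.24 (0.32 to 4.72). These 3 were picked after their values were seen. At this depth smaller differences were not detectable.

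Genes that make, bind or cut the matrix were read from 4 further lists. None of the 15 genes of collagen processing and crosslinking with enough counts was past the stage rule (3.19% of genes higher, 1.55% lower). Of 15 matrix receptors, Itga4, an integrin subunit that binds fibronectin, was higher at E10.5 (mean log2 fold 2.56) and Itga3, a laminin-binding subunit, was lower (-1.98), each with 1 anterior library at 0 taken at its bound. Of 14 proteases and inhibitors, Mmp16, a membrane-bound metalloprotease, and Adamts9, which cleaves versican, were higher (2.02 and 1.83). Of 28 other matrix proteins, Sparcl1, a relative of Sparc, and Tgfbi were higher (3.64 and 1.51). Sparcl1 was at 0.771, 40.6 and 34.9 CPM at E9.5 and 132, 146, 139 and 104 CPM at E10.5. Posterior libraries were higher than middle ones by the same rule for 5 of 14 proteases and inhibitors (2.22% of genes). In the position fit 0 genes of the 4 lists passed an edgeR adjusted p of 0.05 in any contrast. At an unadjusted edgeR p under 0.05 there were 12 of 65 in posterior minus anterior (6.05% of all genes). There were 9 in posterior minus middle (3.85%) and 6 in middle minus anterior (3.51%), and none of these is a call. DESeq2 and limma also called 0 of the 65.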

How the data were processed

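Single-cell counts of unique molecules (UMIs) were read from the matrices the authors deposited, 1 per stage. Per the submitters' processing notes they came from Cell Ranger 3.0 and Seurat, and per the labels' protocols reads were aligned to mm10. The deposited matrices hold raw counts with no normalization. For each position library (barcode suffix) the counts of its cells were added up and divided by the library total over all genes (CPM). Intervals are 95% exact Poisson intervals for counting error only, and a count of 0 was given the limit of 3 counts. UMIs limit amplification error, but cells of 1 embryo are not independent, and the interval does not cover that.

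Position was tested with edgeR 4.0.16 in R 4.3.3 (TMM, filterByExpr, quasi-likelihood, stage as a term) on 6 libraries and 9825 genes. DESeq2 1.42.0 and limma 3.58.1 were alternatives. The outflow tract has no E9.5 partner and was left out of that fit. Stages have 1 sample each and were described without a test. Cells were clustered with scanpy 1.11.5 on 2000 variable genes without the listed matrix genes (20 components, 15 neighbours, resolution 0.6), and a cluster was named from at least 3 markers. Scrublet, run per library with exact neighbours, marked between 0% and 6.67% of cells as doublets, which were kept, and leaving them out was an alternative. Thinning to 4500 UMIs left out 8 shallower cells at E9.5 posterior and 5, 40 and 89 at E10.5 anterior, middle and posterior.

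All 40 members are accounted for. Fitted folds are given for the 8 members with the smallest p in each posterior contrast, stage folds for all members past the 2-fold rule, and up to 4 genes per list and direction for the 4 further lists. The members and lists were chosen with earlier results of these data known. Alternatives were library scaling, filters, cell sets and leaving out each library. Leaving out epithelium-like cells alone, and leaving out each gene's highest cell, were chosen after seeing the data. Scripts were tested on simulated data.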

Additional observations from a re-analysis of the deposited data

Results flagged for a closer look

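The order of the posterior and anterior libraries was opposite at the 2 stages for 5 of the 40 matrix genes. Each was at least 2-fold apart with an interval clear of 0 at both stages. The same count was not made over all genes, so how common such a reversal was is not known. With 1 library per position and stage the difference was not tested. Col18a1, the endostatin collagen, had a posterior over anterior log2 fold of -1.24 at E9.5 and 2.46 at E10.5. Fn1, fibronectin, had -1.92 and 1.20. Col9a1 had 1.09 and -1.94. Fbln2, fibulin-2, had 2.67 and -2.70, and Lum, lumican, had 3.71 and -2.96. The epithelium-like share was 72.2% and 12.9% in the anterior and posterior libraries of E9.5 and 0% and 7.32% in those of E10.5, and its part in the result was not tested. The E9.5 anterior values of Fbln2 and Lum were 1 count each, and the E10.5 anterior value of Col18a1 was 3 counts.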

How the results depend on the processing

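Of 233 refitted position folds of named members, 203 kept their direction and their side of the threshold, 27 kept their direction and passed it, and 3 reversed. Has2 in posterior minus anterior became 0.74 without epithelium-like cells and between -2.87 and 0.16 with 1 library left out (0.16 without the E9.5 anterior library), and Bgn in posterior minus middle became -0.67 without cells of named clusters. Of 61 recomputed mean stage folds, 54 moved by less than their counting error and 7 by more, with no change of sign in the mean. Fbln2 and Bgn when thinned, and Hapln1 without its top cells, had no value and are not among the 61. Some single-position folds did change sign, such as the anterior fold of Vcan without epithelium-like cells (-0.24) and of Bgn without cells of named clusters (-0.20).

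Against 29 genes called in posterior minus anterior, there were 260 with no filter on low counts, 0 without the replicate block (no stage term), 15 without doublets, 44 without cells of named clusters, 45 with DESeq2, 0 with limma and 95 to 332 with 1 library left out. Against 19 in posterior minus middle, there were 178 with no filter, 0 without the replicate block, 36 without cells of named clusters, 36 without epithelium-like cells, 33 with DESeq2, 0 with limma and 37 to 231 with 1 library left out. Against 0 in middle minus anterior, there were 64 with no filter, 2 without cells of named clusters, 5 without epithelium-like cells, 4 with DESeq2 and 14 to 123 with 1 library left out. The stage term is the only block these labels allow, since stage samples carry no replicate number.

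Members called, 0 in each contrast, became 4, 2 and 3 of 40 with no filter (1.61%, 1.10% and 0.395% of all genes). The order is posterior minus anterior, posterior minus middle and middle minus anterior. Without cells of named clusters, members called became 1 and 2 of 31 in the first pair of contrasts (0.542% and 0.444% of genes). In posterior minus middle without epithelium-like cells, 1 of 34 was called (0.396% of genes). With 1 library left out they were 2 to 8, 0 to 6 and 1 to 6. In the fits with 1 library left out, 1 position rests on a single library, so those ranges are not calls. With no filter the members called in posterior minus anterior were Col3a1, Col5a2 and Dcn (higher) and Sparc (lower).

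By the 2-fold rule, posterior against anterior had 0 members when thinned and 8 at 1.5-fold, against 3. When thinned, 2.47% of genes were higher and 0.414% lower. At 1.5-fold, 5 members were higher (4.66% of genes) and 3 lower (1.601%). Posterior against middle had 1 when thinned, 7 at 1.5-fold, 8 without cells of named clusters and 5 without epithelium-like cells, against 3. The 1 when thinned was higher (1.82% of genes). At 1.5-fold, 5 were higher (6.14%) and 2 lower (1.17%). Without cells of named clusters, 3 were higher (1.503%) and 5 lower (0.73%). Without epithelium-like cells, 3 were higher (2.63%) and 2 lower (0.399%). The stage count of 8 became 3 when thinned, all higher (2.73% of genes). It became 5 without epithelium-like cells, with 4 higher (2.89%) and 1 lower (1.44%). Outflow tract against anterior had 4 of 14 with a minimum of 20 counts (Fn1 and Fbn2 higher, Fbln2 and Lum lower), against 0. By that setting 4.55% of genes were higher and 4.40% lower. At 1.5-fold it had 1 of 3 (Vcan, higher), where 7.99% of genes were higher and 8.75% lower. The cause of these changes was not tested. Bgn was past the rule against the middle with library totals but not with TMM scaling. The 2 and 8 members that differed between epithelium-like and other cells were as many at resolution 0.3, at 1.0 and with each stage clustered alone. Depth limits the E10.5 outflow tract and anterior libraries most, where 3 counts are 15.3 and 11.8 CPM.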

Other observations

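Single cells held much of some small proteoglycan and fibroblast gene totals. In the E9.5 posterior library, 1 mesothelium-like cell of 45474 UMIs, not marked as a doublet, held 103 of 178 Postn counts (57.9%), 76 of 138 Lum counts (55.1%), 98 of 396 Col1a1 counts (24.7%) and 109 of 1706 Sparc counts (6.39%). The same cell held 22 of 1052 Col3a1 counts and 1 of 487 Col26a1 counts. It was the highest cell of that library for Postn, Lum, Col1a1 and Sparc. Which cell type it was beyond its cluster was not tested.

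Decorin was counted in some of the epithelium-like cells of E10.5 and not in others. Of the 14 middle cells, 7 had a Dcn UMI and 6 of these also had Sox2, a transcription factor of foregut epithelium, while none of the 7 had Nkx2-1, the lung and thyroid factor that 6 of the 14 carried. Of the 41 posterior cells, 1 had Dcn, 24 had Sox2 and 6 had Nkx2-1, and none of the 24 had Dcn. Of the 5 outflow tract cells, 2 had Dcn and 1 had Sox2, with 0 having both, so Dcn and Sox2 were counted together in the middle library alone. This split was noticed in the values and has no test.

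Several members are neighbours in the genome (GRCm38, GENCODE vM21). Col4a1 and Col4a2 lie head to head on opposite strands of chromosome 8, with 22 bases shared by the 2 gene models. The strand setting of the counting is not given, and it would matter only for reads within those 22 bases. Col3a1 and Col5a2 lie 24.6 kb apart on chromosome 1, Dcn and Lum 47.0 kb apart on chromosome 10, Hapln1 and Vcan 43.7 kb apart on chromosome 13, and Col6a2 and Col6a1 85.2 kb apart on chromosome 10. Hapln1 and Vcan did not go the same way between the stages: Vcan was higher and Hapln1 lower at E10.5 at all 3 positions, with mean log2 folds of 1.23 and -1.97. The anterior fold turned to -0.24 for Vcan without epithelium-like cells and to 0.43 for Hapln1 with cells thinned to 4500 UMIs. Before thinning, the E10.5 anterior library held 1 Hapln1 count, so the 0.43 gives no direction.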
